A study of Rattus norvegicus with 16 samples.

Results

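The 10 genes described here mark microglia, the resident macrophages of the central nervous system: Csf1r, Cx3cr1, P2ry12, P2ry13, Tmem119, Aif1, Trem2, Tyrobp, Cd68 and Cd14. They were chosen by name as microglial genes, with earlier results of these data known, from 14557 genes that had a transcript cluster with a single gene symbol on the array. Each of the 10 had 1 such transcript cluster, and all 10 lay at a log2 value of at least 5 on all 16 arrays, a level used here as the border of dim signals.

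The values come from rat myelinating cultures, in which spinal cord cells of Sprague-Dawley embryos (E15.5) grow on a monolayer of astrocytes. These astrocytes were derived from neurospheres of the striata of postnatal day 1 Sprague-Dawley rats. Cultures received a form of fibroblast growth factor 2 (FGF2) after 18 days in vitro, and RNA was taken after 24 h with F2V2, wtFGF2 or humanFGF2, or from untreated Control cultures collected at 24 h as well, with 4 arrays per group. F2V2 is a variant of human FGF2 that lacks an N-terminal stretch, humanFGF2 is the recombinant human protein given at the same dose, and the sources used here do not say how wtFGF2 differs from humanFGF2 or at what dose it was given. The description deposited with the data speaks of independent cultures and a legend of the study of technical replicates, and the p-values given here can speak only for how much the 4 arrays of a group differed.

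Microglia depend for survival on the receptor encoded by Csf1r, which binds the cytokines Csf1 and Il34. They read neuronal signals through receptors such as Cx3cr1, which binds neuronal fractalkine, and sense nucleotides released by other cells through P2ry12 and P2ry13. Trem2 recognises lipids and lipoproteins and signals through the adaptor Tyrobp, Cd68 is a glycoprotein of lysosomes, and Cd14 is a co-receptor for bacterial lipopolysaccharide. Resting microglia in the healthy brain are known for high P2ry12, Cx3cr1 and Tmem119, whereas Cd68 and Cd14 are usually described as higher in phagocytic or activated cells.

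In the promoter sequences of RefSeq (GRCr8, 250 bases before to 50 bases after the start of transcription used there), 6 of the 10 genes matched an entry, namely Csf1r, Cx3cr1, P2ry13, Trem2, Cd68 and Cd14. These were searched on both strands for GAGGAA, which reads TTCCTC on the other strand, a core to which the myeloid transcription factor PU.1 (Spi1) can bind. No other motif was searched. The hexamer was present in 4 of the 6 (Csf1r, Trem2, Cd68 and Cd14), against 27.6% of 33469 promoters of the same length. The stretches that lie before the start used there are shown with 10 bases on either side, whether or not the gene was called. Cd14 was called, Trem2 passed in no comparison with Control cultures, and P2ry13, which was called, held no match. Each is written 5′ to 3′ on the strand that spells GAGGAA, which is in capitals:
Csf1r, chr18:56834140-56834165, minus strand: acacacaccaGAGGAAgaggcagaat
Csf1r, chr18:56834274-56834299, minus strand: gatgggaacaGAGGAAcacgttcttg
Trem2, chr9:20151793-20151818, plus strand: gggcacgaggGAGGAAggaaaggagg
Cd68, chr10:54882453-54882478, plus strand: tctcttggaaGAGGAAatgaaaactc
Cd14, chr18:28611283-28611308, minus strand: gggttgttagGAGGAAgagaagtggg
Cd14, chr18:28611248-28611273, minus strand: tgagttcacaGAGGAAgggacagggt
The matches in Cd14 are on the strand of the gene and those shown for Csf1r, Trem2 and Cd68 on the opposite strand. The windows of Cx3cr1 and P2ry13 did not hold these letters. The start used there is not the outermost RefSeq position of every gene. The RefSeq gene of Csf1r begins at 56834152, that of Cd14 reaches to 28611409 and that of Trem2 to 20151797. Both Cd14 stretches and the Csf1r stretch from 56834274 thus lie inside the gene, and the other Csf1r stretch spans its beginning. The Trem2 stretch also spans the beginning of its gene, with bases beside the hexamer and not the hexamer itself. The windows of Cx3cr1 and P2ry13 also lie inside their genes. A match is a description of the sequence and not of binding.

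Other cells of the cultures were measured together with the microglia. Within each group the lowest correlation between arrays over all transcript clusters was between 0.996 and 0.997. The T cell markers Cd3e, Cd3d, Cd3g and Cd8a were under a log2 value of 5 in every group, as were 3 of the 5 measured genes listed for neutrophils and monocytes (S100a8, S100a9 and Ccr2). Csf3r, also of that list, had group means of 5.53 in F2V2, 5.48 in wtFGF2, 5.30 in humanFGF2 and 5.09 in Control cultures (log2 difference with F2V2 0.44, adjusted p = 0.0413, below 1.4-fold). Ly6g6c, with group means from 6.33 to 6.59, was listed as well. It is a gene other than the mouse neutrophil marker Ly6g and is not read here as a marker of these cells. The microglial and macrophage markers Itgam, Ptprc, Spi1 and Itgb2 averaged 7.04 in F2V2, 6.79 in wtFGF2, 6.83 in humanFGF2 and 6.67 in Control cultures (array ranges 6.98 to 7.12, 6.597 to 7.04, 6.65 to 6.90 and 6.46 to 6.83, in the same order). Markers of astrocytes and oligodendrocytes were on average lower with the treatments. With F2V2, 1 of 4 astrocyte markers, Gjb6 (log2 difference -1.76), and 1 of 3 oligodendrocyte markers, Mog (-0.62), were called lower (3.6% of all clusters). The other markers of both lists fell by less than 1.4-fold with F2V2. Called lower were 3 astrocyte and 2 oligodendrocyte markers with wtFGF2 (5.92%), and 3 and 3 with humanFGF2 (8.6%). The 4 measured astrocyte markers (Slc1a3, Gja1, Kcnj10 and Gjb6) averaged 10.20 in F2V2 (array range 10.09 to 10.34), 9.91 in wtFGF2 (9.76 to 10.10), 9.29 in humanFGF2 (9.24 to 9.32) and 10.79 in Control cultures (10.64 to 10.94), and the 3 oligodendrocyte markers (Mog, Mag and Cnp) 10.44 in F2V2 (10.29 to 10.55), 10.06 in wtFGF2 (9.99 to 10.10), 9.83 in humanFGF2 (9.64 to 9.95) and 10.76 in Control cultures (10.72 to 10.84). The 6 markers of oligodendrocyte progenitors averaged 10.00 in F2V2 (9.91 to 10.07), 9.88 in wtFGF2 (9.81 to 9.93), 9.51 in humanFGF2 (9.42 to 9.56) and 9.99 in Control cultures (9.905 to 10.08), with members that went both ways with F2V2, such as Olig2 (log2 difference 0.73) and Gpr17 (-0.89). The 4 neuronal markers averaged 11.54 in F2V2 (11.49 to 11.58), 11.53 in wtFGF2 (11.44 to 11.64), 11.53 in humanFGF2 (11.49 to 11.57) and 11.75 in Control cultures (11.72 to 11.78), differences that were below 1.4-fold for each marker. The 6 markers of fibroblasts and pericytes overlapped between all groups, at 9.04 in F2V2 (8.86 to 9.14), 8.77 in wtFGF2 (8.57 to 9.06), 8.73 in humanFGF2 (8.37 to 9.13) and 9.13 in Control cultures (8.70 to 9.32), with 2 of the 6 called lower with humanFGF2 (8.6% of all clusters) and 0 with F2V2 (3.6%) or wtFGF2 (5.92%). The endothelial markers averaged 5.46 in F2V2, 5.59 in wtFGF2, 5.57 in humanFGF2 and 5.73 in Control cultures, with Cldn5 and Tek under 5 in every group. The part of these cells in the values of the microglial genes was not tested.

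Against untreated cultures, the microglial genes did not move as a block. Cd14 rose with each treatment, Tmem119 with F2V2 and wtFGF2, and P2ry12 and P2ry13 fell with humanFGF2. Between the treatments, Cd14 was called higher with F2V2 than with wtFGF2 (log2 difference 0.62, adjusted p = 0.00117). For Tmem119, P2ry12 and P2ry13 the calls do not by themselves show that the treatments differed, since Tmem119 with humanFGF2 lay just under the fold threshold (log2 difference 0.48, adjusted p = 0.00427), P2ry12 lost its call under several alternatives, and between F2V2 and humanFGF2 cultures none of Tmem119 (adjusted p = 0.149), P2ry12 (0.203) and P2ry13 (0.0946) passed. A gene was called at an adjusted p under 0.05 (limma, Benjamini-Hochberg over all 15653 transcript clusters with a symbol) together with a change of at least 1.4-fold, which is 0.49 on the log2 scale. In these mixed cultures, fewer microglia and less RNA per microglial cell cannot be told apart.

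By this rule F2V2 raised 2 of the 10 genes and lowered 0, where 9.38% of all transcript clusters were called (5.78% higher and 3.6% lower). wtFGF2 raised 2 and lowered 0, where 13% were called (7.06% higher and 5.92% lower). humanFGF2 raised 1 and lowered 2, where 19.1% were called (10.5% higher and 8.6% lower). From counts this small and this close to the background, nothing particular to these genes is read. At an unadjusted p under 0.05, 4 genes were higher and 2 lower with F2V2 (41.5% of all clusters in either direction), 3 higher and 1 lower with wtFGF2 (46.2%) and 3 higher and 3 lower with humanFGF2 (50.8%), and contrasts without moderation of the variance called the same numbers as limma. At an adjusted p alone, 5 of the 10 passed with F2V2 (33.6% of all clusters), 4 with wtFGF2 (39.3%) and 6 with humanFGF2 (45.8%), and the treated and Control arrays did not overlap for 3, 2 and 6 genes in the same order (30.9%, 37.9% and 46.1% of all clusters). The median log2 difference from Control over the 10 genes was 0.13 with F2V2 (0.01 over all clusters), 0.06 with wtFGF2 (0.03) and -0.06 with humanFGF2 (0.02). The range over the genes was much wider than these medians, from -0.35 to 1.15 with F2V2, from -0.37 to 0.63 with wtFGF2 and from -0.65 to 0.93 with humanFGF2. These 3 comparisons share the 4 Control arrays.

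**Figure D1:**
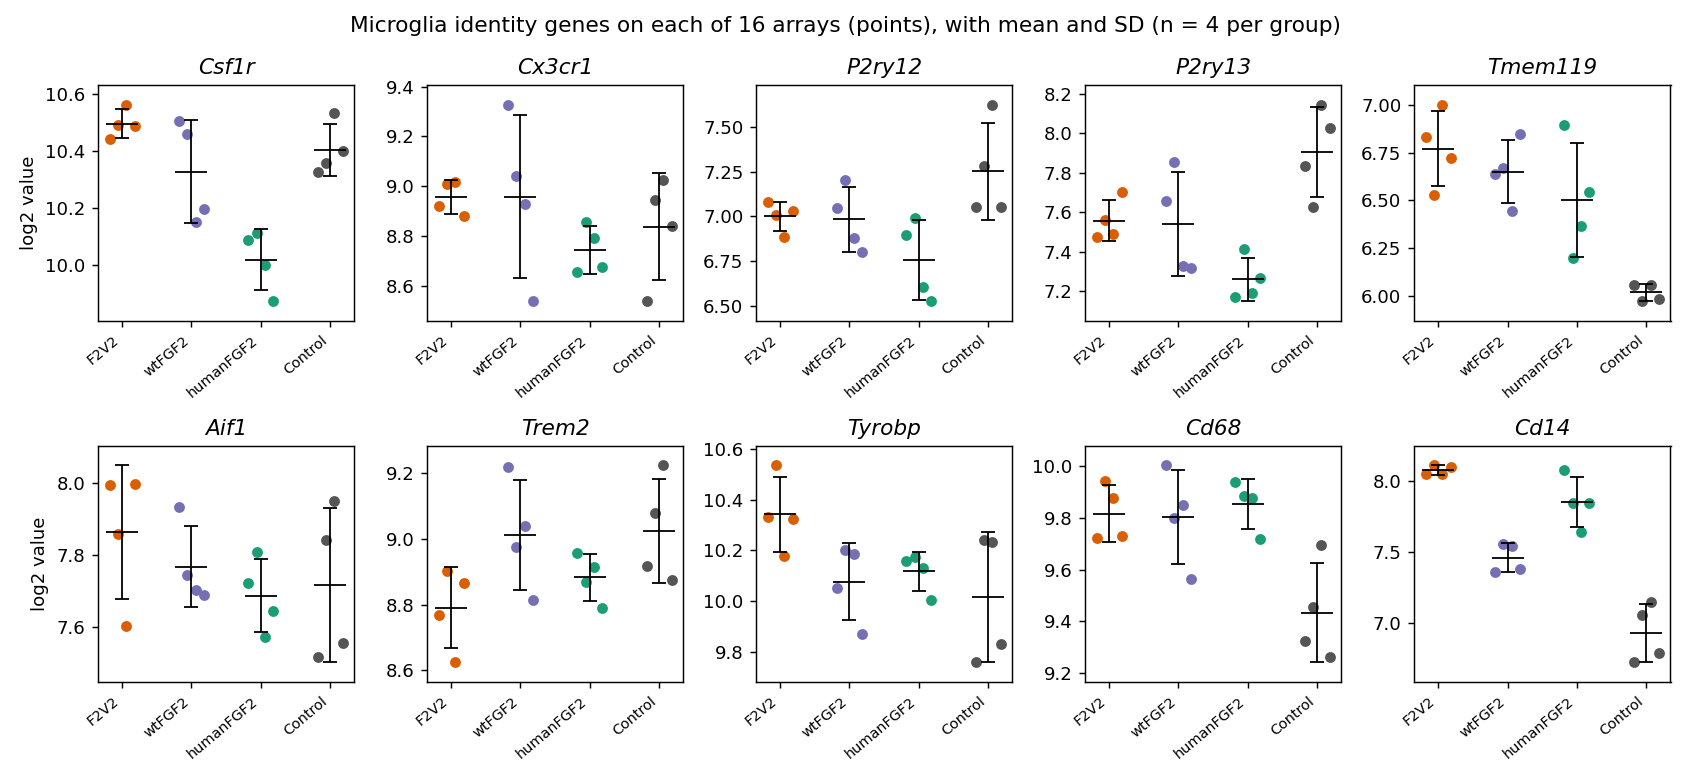
The log2 value of each of the 10 genes (vertical axis, its own scale in each panel) on the 4 arrays of the F2V2, wtFGF2, humanFGF2 and Control groups, with a point per array and bars for the mean and SD. The Cd14 and Tmem119 points of every treated group lie above all Control points, and the humanFGF2 points of P2ry12, P2ry13 and Csf1r lie below all Control points.

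Csf1r encodes the receptor tyrosine kinase for Csf1 and Il34. It measured 10.44, 10.49, 10.56 and 10.49 on the F2V2 arrays, 10.50, 10.46, 10.15 and 10.20 with wtFGF2, 10.09, 10.11, 10.00 and 9.87 with humanFGF2, and 10.33, 10.36, 10.53 and 10.40 in Control cultures (log2 values in the order of replicate numbers, here and for the other genes). The humanFGF2 arrays were below all others, while the F2V2, wtFGF2 and Control arrays overlapped. The log2 difference from Control was -0.39 with humanFGF2 (standard error 0.08, adjusted p = 0.000644), which is 1.31-fold and so below the fold threshold, and 0.09 with F2V2 (adjusted p = 0.429) and -0.08 with wtFGF2 (adjusted p = 0.492). Ordered by mean, Csf1r ran from F2V2 (10.50 ± 0.05, SD, n = 4) over Control (10.41 ± 0.09) and wtFGF2 (10.33 ± 0.18) to humanFGF2 (10.02 ± 0.11), and humanFGF2 differed from each of the other groups at an adjusted p under 0.05.

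Cx3cr1, the fractalkine receptor, did not pass the test in any of the 6 comparisons among the 4 groups. It measured 8.92, 9.01, 9.02 and 8.88 on the F2V2 arrays, 9.33, 9.04, 8.93 and 8.54 with wtFGF2, 8.66, 8.86, 8.79 and 8.68 with humanFGF2, and 8.54, 8.94, 9.03 and 8.84 in Control cultures. All treated groups overlapped the Control arrays, and the SD was 0.33 in the wtFGF2 group and 0.07 in the F2V2 group. The 95% interval of the log2 difference from Control ran from -0.15 to 0.39 with F2V2, from -0.15 to 0.40 with wtFGF2 and from -0.37 to 0.18 with humanFGF2.

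P2ry12 and P2ry13 are G protein-coupled receptors for ADP, and their RefSeq genes in the rat lie 6756 bases apart on the same chromosome. P2ry12 is required for microglial processes to move towards sites of injury in mice. It measured 7.08, 7.01, 6.88 and 7.03 on the F2V2 arrays, 7.05, 7.20, 6.88 and 6.80 with wtFGF2, 6.90, 6.99, 6.605 and 6.53 with humanFGF2, and 7.05, 7.28, 7.63 and 7.05 in Control cultures. All humanFGF2 arrays lay below all Control arrays, and the fall was 1.41-fold (log2 difference -0.50, standard error 0.13, adjusted p = 0.00385), which is close to the fold threshold. Without Control replicate 3, the highest of its group, the log2 difference was -0.37 and no longer called (adjusted p = 0.0148), and it was also not called without humanFGF2 replicate 3 (-0.45), without humanFGF2 replicate 4 (-0.42), after quantile normalization (-0.44) or after subtraction of each array's median (-0.44). With F2V2 the log2 difference was -0.25 (adjusted p = 0.149) and with wtFGF2 -0.27 (adjusted p = 0.111), and neither passed.

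P2ry13 measured 7.47, 7.56, 7.49 and 7.70 on the F2V2 arrays, 7.65, 7.86, 7.33 and 7.32 with wtFGF2, 7.17, 7.41, 7.19 and 7.27 with humanFGF2, and 7.83, 7.62, 8.15 and 8.03 in Control cultures. It fell 1.57-fold with humanFGF2, with all 4 arrays below all Control arrays (log2 difference -0.65, standard error 0.12, adjusted p = 0.00027). With F2V2 it was lower by a log2 difference of -0.35 (adjusted p = 0.0345) and with wtFGF2 by -0.37 (adjusted p = 0.0231), both below the fold threshold and with arrays that overlapped those of Control. P2ry13 was thus the member with the lowest log2 difference from Control in each of the 3 treated groups.

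Tmem119 encodes a transmembrane protein that in the mouse and human brain is used to tell microglia from other macrophages, and that was first described in bone-forming cells of the mouse. It measured 6.83, 6.53, 7.00 and 6.72 on the F2V2 arrays, 6.64, 6.67, 6.45 and 6.85 with wtFGF2, 6.90, 6.20, 6.37 and 6.54 with humanFGF2, and 6.06, 5.97, 6.06 and 5.98 in Control cultures. The Control arrays were within 0.09 of each other, and each of the 12 treated arrays lay above them. Tmem119 rose 1.69-fold with F2V2 (log2 difference 0.75, standard error 0.13, adjusted p = 0.000185) and 1.55-fold with wtFGF2 (0.63, standard error 0.13, adjusted p = 0.000645). With humanFGF2 the difference was 0.48 (adjusted p = 0.00427), just below the fold threshold, and it was called after quantile normalization (0.55), after subtraction of each array's median (0.54) and when humanFGF2 replicate 2 (0.58) or 3 (0.53) or Control replicate 1 (0.50) or 3 (0.50) was left out. Tmem119 did not pass in any comparison between the treatments.

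Aif1 encodes the calcium-binding protein IBA1, a common stain for microglia. It measured 7.99, 7.86, 7.60 and 7.997 on the F2V2 arrays, 7.93, 7.74, 7.70 and 7.69 with wtFGF2, 7.72, 7.81, 7.57 and 7.64 with humanFGF2, and 7.52, 7.84, 7.95 and 7.55 in Control cultures. The arrays of the 4 groups overlapped, and Aif1 had the narrowest range of the 10 genes over the 16 arrays, 0.48 on the log2 scale. The log2 difference from Control was 0.15 with F2V2 (95% interval -0.07 to 0.37), 0.05 with wtFGF2 (-0.17 to 0.27) and -0.03 with humanFGF2 (-0.25 to 0.19), and none passed the test.

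Trem2 and its adaptor Tyrobp, which carries the activating motif that recruits the kinase Syk, had differences from Control of opposite sign with F2V2. Neither was called, and whether the changes of these genes differed was not tested. Trem2 measured 8.77, 8.90, 8.63 and 8.87 on the F2V2 arrays, 9.22, 8.98, 9.04 and 8.81 with wtFGF2, 8.96, 8.87, 8.92 and 8.79 with humanFGF2, and 8.92, 9.08, 9.22 and 8.88 in Control cultures. Tyrobp measured 10.33, 10.53, 10.18 and 10.32 on the F2V2 arrays, 10.05, 10.20, 10.18 and 9.87 with wtFGF2, 10.16, 10.18, 10.13 and 10.01 with humanFGF2, and 9.76, 10.24, 10.23 and 9.83 in Control cultures. The treated arrays overlapped the Control arrays for both genes, with the Control values of Tyrobp divided between a higher and a lower pair. The log2 difference from Control with F2V2 was -0.23 for Trem2 (adjusted p = 0.0573) and 0.32 for Tyrobp (adjusted p = 0.0304, 1.25-fold). With wtFGF2 and humanFGF2 neither gene passed, with log2 differences from -0.14 to 0.10.

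Cd68, the lysosomal glycoprotein of phagocytes, was higher than in Control cultures by a similar amount with each treatment, always below the 1.4-fold threshold. It measured 9.72, 9.94, 9.88 and 9.73 on the F2V2 arrays, 10.00, 9.80, 9.85 and 9.56 with wtFGF2, 9.94, 9.88, 9.88 and 9.72 with humanFGF2, and 9.32, 9.46, 9.69 and 9.26 in Control cultures. All arrays of F2V2 and humanFGF2 cultures lay above those of Control cultures, and wtFGF2 replicate 4 overlapped Control replicate 3. The log2 difference was 0.38 with F2V2 (standard error 0.10, adjusted p = 0.00616), 0.37 with wtFGF2 (adjusted p = 0.00638) and 0.42 with humanFGF2 (adjusted p = 0.00196). Without Control replicate 3 the difference with humanFGF2 was 0.51 and was called.

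Cd14, which passes lipopolysaccharide to the receptor complex of Tlr4 and Ly96, was called in all 3 comparisons with Control cultures. It measured 8.05, 8.11, 8.05 and 8.11 on the F2V2 arrays, 7.36, 7.56, 7.54 and 7.38 with wtFGF2, 8.08, 7.85, 7.64 and 7.85 with humanFGF2, and 6.72, 7.05, 7.15 and 6.79 in Control cultures. Every treated array was above every Control array, and the 4 F2V2 arrays were within 0.06 of each other. Cd14 rose 2.23-fold with F2V2 (log2 difference 1.15, standard error 0.10, adjusted p = 1.17e-07), 1.45-fold with wtFGF2 (0.53, standard error 0.10, adjusted p = 0.000253) and 1.90-fold with humanFGF2 (0.93, standard error 0.10, adjusted p = 4.51e-07). The rise with wtFGF2 was 0.47 and not called without Control replicate 1. Ordered by mean, Cd14 ran from F2V2 (8.08 ± 0.03, SD, n = 4) over humanFGF2 (7.85 ± 0.18) and wtFGF2 (7.46 ± 0.10) to Control (6.93 ± 0.20). Of neighbours in this order, F2V2 and humanFGF2 did not differ by the test (adjusted p = 0.107), whereas humanFGF2 and wtFGF2 did at an adjusted p alone (adjusted p = 0.0161).

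**Figure D2:**
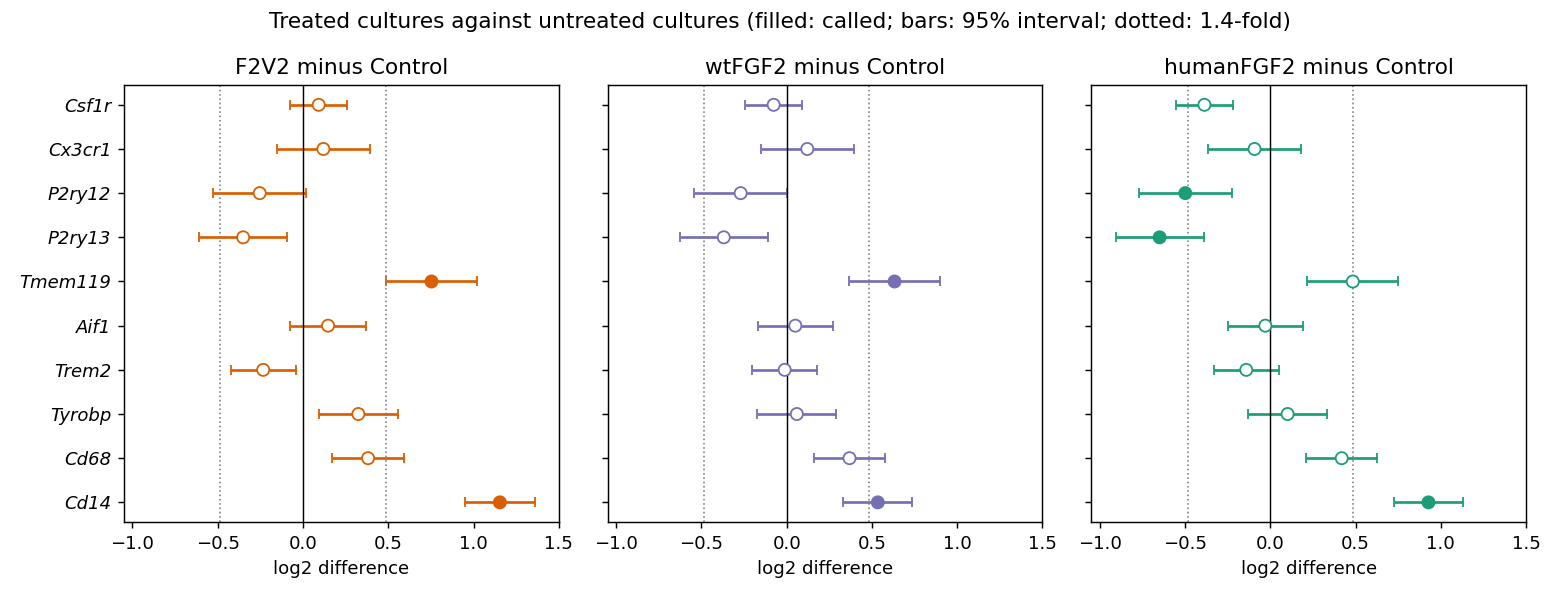
The log2 difference of each gene from Control cultures (horizontal axis) for F2V2, wtFGF2 and humanFGF2, with 95% intervals from the limma fit, dotted lines at 1.4-fold and filled points for called genes. Cd14 is filled in all 3 panels, Tmem119 in those of F2V2 and wtFGF2, and P2ry12 and P2ry13 only in that of humanFGF2.

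The treatments were then compared with each other. Between F2V2 and humanFGF2 cultures, 0 of the 10 genes were called, where 5.84% of all clusters were, and contrasts without moderation of the variance also called 0. Before adjustment 4 had a p under 0.05 (32.5% of all clusters), all higher with F2V2, and 1 passed an adjusted p alone (21.8% of all clusters). That gene was Csf1r, 1.39-fold higher in F2V2 than in humanFGF2 cultures (log2 difference 0.48, standard error 0.08, adjusted p = 0.000324), just below the fold threshold. It was called after quantile normalization (0.50) and without F2V2 replicate 1 (0.50), humanFGF2 replicate 1 (0.50) or humanFGF2 replicate 2 (0.51). The sign was positive for 8 of the 10 genes, with a median of 0.23 over the 10 genes and -0.02 over all clusters. All F2V2 arrays lay above all humanFGF2 arrays for 4 of the genes, Csf1r, Cx3cr1, P2ry13 and Tyrobp, which was so for 25.1% of all clusters in one direction or the other. The exceptions in sign were Trem2 (-0.09) and Cd68 (-0.04).

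F2V2 and wtFGF2 cultures differed in 1 called gene of the 10, where 1.42% of all clusters were called. Cd14 was 1.54-fold higher with F2V2 (log2 difference 0.62, standard error 0.10, adjusted p = 0.00117), and it was also the only one of the 10 at an adjusted p alone (3.92% of all clusters) or without overlap of the arrays (9.73%). The other log2 differences ran from -0.22 for Trem2 (adjusted p = 0.212) to 0.26 for Tyrobp (adjusted p = 0.222). Cx3cr1, P2ry12, P2ry13 and Cd68 were within 0.02 of 0, with 95% intervals that reached no further than 0.29 in either direction.

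Between wtFGF2 and humanFGF2 cultures 0 of the 10 genes were called, where 1.97% of all clusters were, and contrasts without moderation of the variance also called 0. Before adjustment 3 had a p under 0.05 (20.3% of all clusters), 2 of them higher with wtFGF2, and 2 passed an adjusted p alone (8.44% of all clusters). Csf1r was higher with wtFGF2 (log2 difference 0.31, standard error 0.08, adjusted p = 0.0218) and Cd14 lower (-0.39, standard error 0.10, adjusted p = 0.0161), both without overlap of the arrays (15.7% of all clusters) and both below the fold threshold. The remaining 8 genes had log2 differences from -0.05 for Cd68 to 0.28 for P2ry13.

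**Figure D3:**
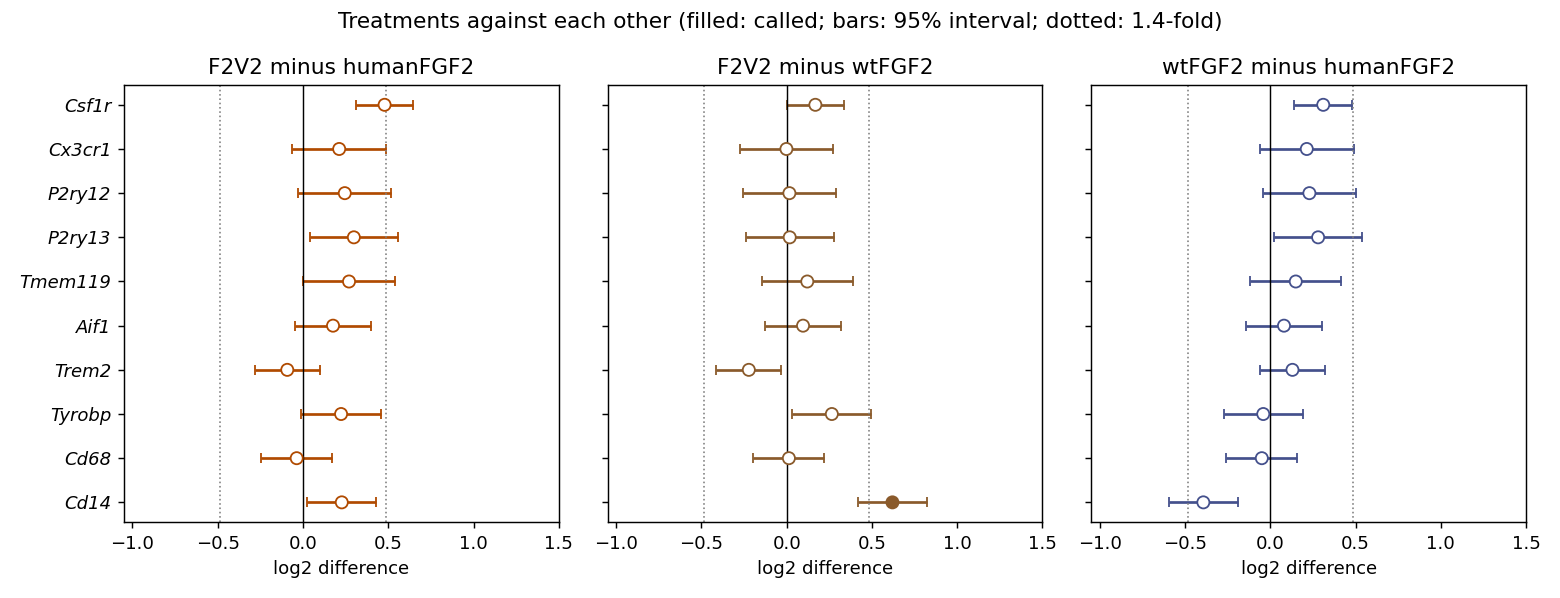
The log2 difference of each gene between F2V2 and humanFGF2, F2V2 and wtFGF2, and wtFGF2 and humanFGF2 cultures (horizontal axis), with 95% intervals, dotted lines at 1.4-fold and filled points for called genes. Cd14 between F2V2 and wtFGF2 is the only filled point. Between F2V2 and humanFGF2, the intervals of Csf1r, P2ry13, Tmem119 and Cd14 lie to the right of 0, that of Csf1r farthest.

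The genes also varied between the arrays of a group, and most of them varied together. When the group mean was subtracted, the 10 genes gave 45 pairs with a median Pearson r of 0.48 over the 16 arrays (range -0.39 to 0.81), of which 38 were positive. All 36 pairs among the 9 genes other than Tmem119 were positive, with a median of 0.56, whereas 7 of the 9 pairs with Tmem119 were negative (median -0.18). The points share the arrays and their processing, so these values describe the arrays and carry no test. Set against the mean of the other 9 genes, P2ry12 had a Pearson r of 0.87 (Spearman 0.86) and Cd68 of 0.76 (Spearman 0.72), while Tmem119 had a Pearson r of -0.20 (Spearman -0.31). Without the arrays farthest from the median deviation, Control replicate 3 and wtFGF2 replicate 4, these became 0.81, 0.58 and -0.15 over 14 arrays, and that of P2ry13 became 0.14 against 0.41 with all arrays.

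Control replicate 3 was above its group mean for all 10 genes, by 0.21 on average, and Control replicate 1 for 1 of the 10, with a mean deviation of -0.15. wtFGF2 replicate 4 was above its group mean for 1 gene, Tmem119, with a mean deviation of -0.16. The spread of the microglial genes was thus uneven between groups. Their median SD was 0.11 in F2V2, 0.17 in wtFGF2, 0.10 in humanFGF2 and 0.21 in Control cultures, against 0.11, 0.10, 0.08 and 0.09 over all clusters of the same groups.

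**Figure D4:**
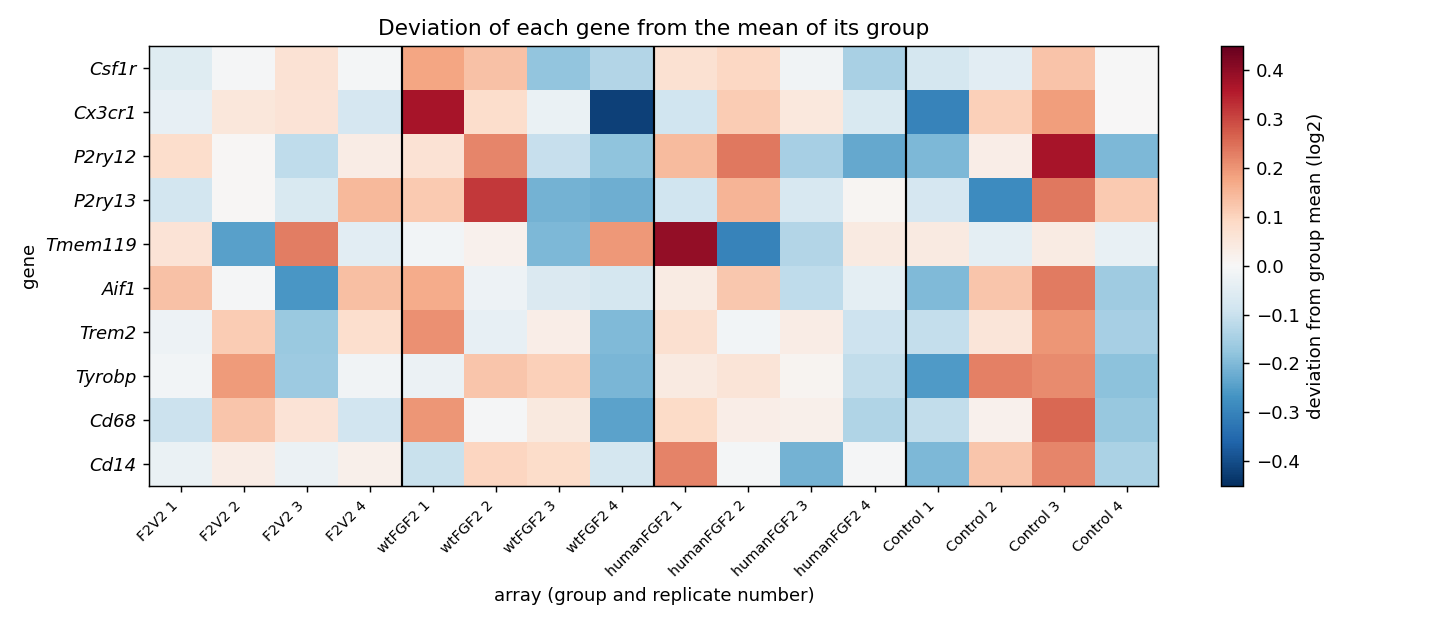
The deviation of each gene (rows) from its group mean on each of the 16 arrays (columns, by group and replicate number), in log2 units, with red above and blue below the mean. The column of Control replicate 3 is red for all 10 genes, and Tmem119 does not follow the other rows.

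Of 10185 other genes at a mean log2 value of at least 5, those whose deviations were most like the mean of the 10 over the 16 arrays were Ifi47 (r = 0.90), Ptafr (0.88), Ptprc (0.86), Casp1, C1qc, Pld4, Arhgdib, Lcp2 and Mvp (all 0.84) and Tlr7 (0.83). The median r over these candidates was -0.01 and the 99th percentile 0.67. Ptprc encodes the leukocyte antigen CD45, C1qc a subunit of the complement component C1q, and Tlr7 a receptor for single-stranded RNA. Without Control replicate 3 and wtFGF2 replicate 4 the r of these 10 genes ranged from 0.68 for Tlr7 to 0.84 for Arhgdib. In the comparisons with Control cultures they differed among themselves. Mvp was called higher with F2V2 (0.73), Ifi47 with F2V2 (0.66) and Ptafr with F2V2 (0.54) and humanFGF2 (0.61), and the other 7 were not called with any treatment.

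Of the ligands of the members, Csf1 and Il34 were called and in different ways. Csf1 averaged 10.23 in F2V2, 9.74 in wtFGF2, 9.56 in humanFGF2 and 9.72 in Control cultures. It rose with F2V2 (log2 difference 0.51, adjusted p = 0.000214) and was higher with F2V2 than with humanFGF2 (0.67, adjusted p = 2.99e-05) and wtFGF2 (0.50, adjusted p = 0.00307). Il34 fell with F2V2 (-0.50), wtFGF2 (-0.74) and humanFGF2 (-0.83). Cx3cl1, which encodes fractalkine, was not called, with log2 differences of -0.14, -0.28 and -0.32 in the same order, nor were the partners of Cd14, Tlr4 (0.14, 0.12 and -0.05) and Ly96 (0.02, 0.21 and 0.33). In the list of Csf1 receptor ligands and related receptors, F2V2 raised 2 and lowered 2 of the 8 measured genes, wtFGF2 raised 1 and lowered 2, and humanFGF2 raised 1 and lowered 2. Over all clusters, 9.38% were called with F2V2, 13% with wtFGF2 and 19.1% with humanFGF2. Neither this list nor the other lists were tested against these shares. Csf2rb, a subunit of the receptors for GM-CSF and IL-3, rose with all 3 (1.11, 0.63 and 0.82), and Kit, the receptor for stem cell factor, fell with wtFGF2 (-0.66) and humanFGF2 (-0.81).

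Of 13 measured genes of Cd14 and Toll-like receptor signalling, F2V2 raised 2, wtFGF2 raised 1 and lowered 1, and humanFGF2 lowered 1. The shares called over all clusters were 9.38%, 13% and 19.1% in the same order. Lbp, which carries lipopolysaccharide to Cd14, rose with F2V2 (1.37, standard error 0.35) and wtFGF2 (1.17), and its log2 difference with humanFGF2 was 0.57 (adjusted p = 0.204). Tlr6, which pairs with Tlr2, fell with wtFGF2 (-0.73) and humanFGF2 (-1.01). Tlr3, a receptor for double-stranded RNA, rose with F2V2 (0.51). The median of the list was 0.11 with F2V2, 0.12 with wtFGF2 and -0.05 with humanFGF2.

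For the lists of this paragraph, the shares called higher over all clusters were 5.78% with F2V2, 7.06% with wtFGF2 and 10.5% with humanFGF2. Among 9 measured genes of Trem2 and Tyrobp signalling, the same 2 rose with each treatment. These were Vav3, a signalling protein of the Vav family, at 1.24 with F2V2, 1.27 with wtFGF2 and 1.31 with humanFGF2, and the kinase Ptk2b at 0.85, 0.95 and 1.33. Both are expressed by other cells of the nervous system as well. In purinergic signalling, 2 of 9 genes rose with F2V2, 3 with wtFGF2 and 3 with humanFGF2. P2ry1, another receptor for ADP, rose with all 3 (0.57, 0.68 and 0.76), and the UDP receptor P2ry6 with F2V2 (0.51). The channel gene Panx1 rose with wtFGF2 (0.59) and humanFGF2 (0.92), as did Nt5e, which makes adenosine from AMP (0.54 and 0.64). In the list of fractalkine and other neuron to microglia signals, 1 of 7 genes rose with each treatment, Tgfb1 (0.66, 0.87 and 1.35), which sustains the resting state of microglia in mice, and Sirpa, the receptor for Cd47, fell with humanFGF2 (-0.51). Which cells of the mixture these changes, including that of Sirpa, came from is not known.

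Of 8 other microglial surface and homeostatic genes, F2V2 raised 2 and lowered 1, wtFGF2 raised and lowered 0 in the limma fit (at an unadjusted p under 0.05, 3 were higher and 2 lower), and humanFGF2 lowered 1. For this and the next 2 lists, the shares called over all clusters were 9.38% with F2V2, 13% with wtFGF2 and 19.1% with humanFGF2. At an unadjusted p under 0.05 the shares over all clusters, in either direction, were 41.5%, 46.2% and 50.8% in the same order. Gpr34, a lysophosphatidylserine receptor, fell with F2V2 (-0.53) and humanFGF2 (-0.68), and Mertk, a receptor for the uptake of apoptotic cells, rose with F2V2 (0.66). Of 14 leukocyte surface and signalling genes, F2V2 raised 2, namely Itgam (0.63) and the kinase Fgr (0.69), whereas in the limma fit 0 were called with wtFGF2 and humanFGF2 (at an unadjusted p under 0.05, 1 was higher and 2 lower with wtFGF2, and 2 were higher and 3 lower with humanFGF2). Fgr was also higher with F2V2 than with humanFGF2 (0.64) and wtFGF2 (0.64). It was not alone, as 2 of the 14 genes were called higher with F2V2 than with humanFGF2 (5.84% of all clusters called). Against wtFGF2, 2 were called higher as well (1.42%). Of 7 myeloid transcription factors, Tfec rose with F2V2 (0.51), Cebpa with wtFGF2 (0.66) and humanFGF2 (1.27), and Maf fell with humanFGF2 (-0.49). The source of these changes in the mixture, also for Mertk and Maf, is not known.

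In the list of lysosome and phagosome genes, to which Cd68 is related by function, 1 of 12 was called, Ctsl, which encodes cathepsin L, with humanFGF2 (0.50). Over all clusters, 9.38% were called with F2V2, 13% with wtFGF2 and 19.1% with humanFGF2. None of the 7 measured genes of C1q and Fc receptors was called in a comparison with Control cultures in the limma fit, where at an unadjusted p under 0.05 3 were higher with F2V2, 1 with wtFGF2 and 1 with humanFGF2. At that unadjusted level, 41.5%, 46.2% and 50.8% of all clusters passed in either direction, in the same order. The phagocytic activation programme, genes that rise in mouse microglia around damaged tissue, had 5 of 11 genes higher with F2V2, 4 higher and 1 lower with wtFGF2, and 3 higher and 1 lower with humanFGF2. Over all clusters, 5.78% were called higher and 3.6% lower with F2V2, 7.06% and 5.92% with wtFGF2, and 10.5% and 8.6% with humanFGF2. The median of the 11 genes was 0.23 with F2V2, 0.04 with wtFGF2 and -0.05 with humanFGF2. Clec7a and Spp1, also listed, were not measured. The genes named next had the lowest adjusted p of the list, and all of them were higher. Lgals3, which encodes galectin-3, rose by 1.29, 1.41 and 1.46 and Cd63, a tetraspanin of endosomes, by 0.82, 0.93 and 0.97 with F2V2, wtFGF2 and humanFGF2, and Itgax, the integrin subunit CD11c, by 0.64, 0.67 and 1.21. Axl, a receptor kinase, rose with F2V2 (0.55) and wtFGF2 (0.57). Astrocytes also express several of these genes, so that their source in the mixture is not known.

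**Figure D5:**
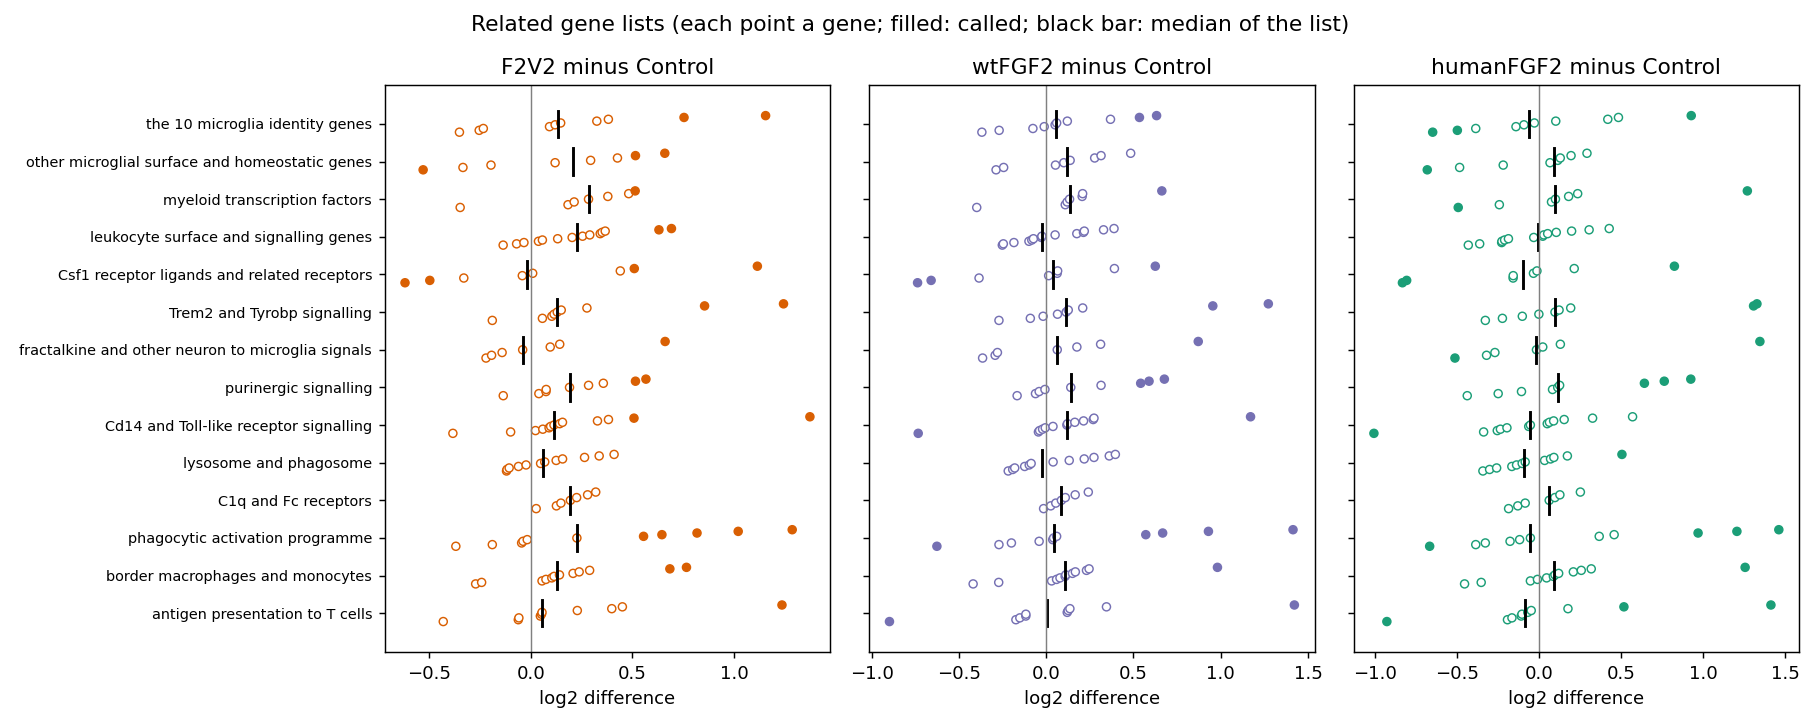
The log2 difference from Control cultures (horizontal axis) of every measured gene of the 13 related lists and of the 10 microglia identity genes (rows), for F2V2, wtFGF2 and humanFGF2, with filled points for called genes and a black bar at the median of each list. The medians of all lists lie near 0, between -0.10 and 0.28, while single genes reach beyond 1 in both the lists and the 10 genes.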

How the data were processed

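RNA was hybridized to Affymetrix rat arrays of the Gene ST type, 4 per group and 16 in all. In Partek 6.6, the authors applied GCRMA to the probe sets and Tukey's biweight (one step) to obtain 1 value per transcript cluster, and these deposited log2 values, from 3.02 to 14.49, were used without further scaling. Such background correction can compress the differences of dim genes, and the number of arrays limits the precision. Of 36685 transcript clusters, 15653 carried a symbol in the platform annotation, 14824 of them a single one. The build behind that annotation is not given in the sources used here.

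All 4 groups were fitted together in limma 3.58.1 (R 4.3.3), with Benjamini-Hochberg adjustment over the 15653 clusters and no replicate block. The study used a one-way ANOVA with the same thresholds. Each gene was represented by its single-symbol cluster with the highest mean. The 10 genes, the 13 related lists (125 of 162 genes measured) and the marker lists were chosen with earlier results of these data known. Named list genes were called in a comparison with Control cultures, at most the 4 with the lowest adjusted p per list, besides the ligands and partners Csf1, Il34, Cx3cl1, Tlr4 and Ly96. Levels of different genes were not ranked against each other. They were set against the border of dim signals and averaged over the markers of a cell type. Alternatives were other fold thresholds, normalizations, variance priors, sample sets, filters and rows, a replicate block and each array left out in turn. RefSeq proteins were not used here.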

Additional observations from a re-analysis of the deposited data

How the results depend on the processing

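No log2 difference of the 10 genes that had been called changed sign under any alternative run. Without a fold threshold, the genes called were 5 with F2V2, 4 with wtFGF2 and 6 with humanFGF2 against Control cultures, 1 between F2V2 and humanFGF2 and 2 between wtFGF2 and humanFGF2. At 2-fold they were 1 with F2V2 (Cd14), 0 with wtFGF2 and 0 with humanFGF2 against Control cultures, and 0 between F2V2 and wtFGF2, because the threshold is above all the other differences. Quantile normalization gave 1 between F2V2 and humanFGF2 (Csf1r), and the cause was not tested. When single arrays were left out, the counts ranged from 2 to 2 with F2V2, from 1 to 2 with wtFGF2 and from 2 to 4 with humanFGF2 against Control cultures, from 0 to 1 between F2V2 and humanFGF2, from 1 to 1 between F2V2 and wtFGF2 and from 0 to 0 between wtFGF2 and humanFGF2. The trended prior, contrasts without moderation, fewer groups in the fit, all rows, the filter on dim clusters and the mean over a gene's rows changed no call.

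The replicate numbers did not pair the arrays. Over 24 pairs of same-numbered arrays the correlation of deviations was between -0.17 and 0.22 (median -0.03), and 3 of 24 arrays correlated best with their own number. With the replicate number as a block, the counts of called genes were 2 with F2V2, 2 with wtFGF2 and 3 with humanFGF2 against Control cultures, 0 between F2V2 and humanFGF2, 1 between F2V2 and wtFGF2 and 0 between wtFGF2 and humanFGF2, and no call changed.

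Several calls turn on the fold threshold and not on the p-value. Tmem119 with humanFGF2 and Csf1r between F2V2 and humanFGF2 lie just under 1.4-fold and P2ry12 with humanFGF2 just over it. The fit uses 1 spread per gene over all 4 groups, although the microglial genes varied more in Control and wtFGF2 cultures than in the others, and a gene that did not pass is not shown to be equal.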

Other observations

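Genes of border macrophages and monocytes and of antigen presentation were measured beside the 10 microglial genes. Over all clusters, 9.38% were called with F2V2, 13% with wtFGF2 and 19.1% with humanFGF2, and neither list was tested against these shares. Of 12 measured genes of border macrophages and monocytes, F2V2 raised 2, wtFGF2 1 and humanFGF2 1. Lyve1, a hyaluronan receptor of border macrophages that lymphatic endothelium also expresses, rose with F2V2 (log2 difference from Control 0.77), wtFGF2 (0.98) and humanFGF2 (1.26). Siglec1, a sialic acid receptor of macrophages, rose with F2V2 (0.68) and was higher with F2V2 than with wtFGF2 (0.58). Of 10 genes of antigen presentation to T cells, F2V2 raised 1, wtFGF2 raised 1 and lowered 1, and humanFGF2 raised 2 and lowered 1. Cd80, a co-stimulatory ligand, rose with F2V2 (1.24), wtFGF2 (1.42) and humanFGF2 (1.41). Cd74, the invariant chain of MHC class II, fell with wtFGF2 (-0.90, standard error 0.32, adjusted p = 0.0319) and humanFGF2 (-0.93, adjusted p = 0.0229), while RT1-DMb rose with humanFGF2 (0.52).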
